A study of Rattus norvegicus with 2 samples.

Results

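Elastic fibres and their microfibrils were examined through 10 genes chosen by name for their known roles: elastin (Eln), the fibrillins (Fbn1, Fbn2), the fibulins (Fbln1, Fbln2, Fbln5 and Efemp2), the microfibril-associated genes Mfap4 and Mfap5, and Emilin1. Of these, 9 had a row among the 16846 gene symbols of the table, and Fbln2 was not analysed here. Of the 9, 8 had a mean of at least 1 RPM (reads on the gene per 1000000 reads on all genes), and Mfap5 lay below that floor. Strand-specific libraries of poly(A) RNA were sequenced from Rattus norvegicus ventricular cells taken on postnatal day 0 and prepared as cardiomyocytes. The anti-miR library came from cultures transduced for 7 days with AAV2/9, an adeno-associated virus, carrying short hairpins against miR-99/100 and let-7. For the control cultures the treatment tag gives an empty virus, while the protocol speaks of mock transduction. There was 1 library per group, so no difference below has a replicate check and no p-value is given for a difference between the conditions. The anti-miR library held 14815846 reads on genes, and the control library 16031780.

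Elastic fibres let tissues recoil after stretch. Fibrillins polymerise into microfibrils, on which cross-linked tropoelastin is laid down to form the elastic core. Fibulins bring tropoelastin, lysyl oxidases and microfibrils together, and further glycoproteins sit on the microfibril or at its boundary with elastin. In the heart these fibres are found in the walls of coronary vessels, in valves, under the endocardium and in the epicardium, and fibroblasts and smooth muscle cells are known to make them.

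The inhibited miRNAs are shown because they define the treatment, with the seed, bases 2 to 8, in capitals. The sequences are RefSeq mature forms on build GRCr8. Of 5 names looked up, 4 matched, and rno-miR-99a-5p was not among them.
rno-miR-99b-5p: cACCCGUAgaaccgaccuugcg
rno-miR-100-5p: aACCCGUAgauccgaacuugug
rno-let-7a-5p: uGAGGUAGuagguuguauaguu
rno-let-7c-5p: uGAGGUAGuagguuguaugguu
The 4 sequences fall into 2 seed groups, ACCCGUA for miR-99b and miR-100 and GAGGUAG for let-7a and let-7c. Poly(A) libraries do not measure mature miRNAs, so the knockdown itself was not read here.

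Per the labels' protocols, cells left unattached after 2 h on uncoated plastic were plated, with a stated cardiomyocyte purity above 90%. In both libraries fibroblast marker RNA nevertheless exceeded cardiomyocyte marker RNA. The 10 fibroblast markers, led by Col1a1 and Col3a1, chains of type I and type III collagen, summed to 10.4% of reads in the anti-miR library and 10.2% in the control. The 9 measured cardiomyocyte markers, led by Tnnt2 and Actc1, cardiac troponin T and cardiac alpha actin, summed to 276 RPM in the anti-miR library and 244 RPM in the control. Myh6, Ryr2 and Tnni3, further cardiomyocyte markers, lay below the floor. They had 0 reads in the control library and 23, 20 and 5 reads in the anti-miR library. Myl2 and Pln went the other way, with 30 and 135 reads in the control and 5 and 100 in the anti-miR library. Of the 6 cardiomyocyte markers above the floor, 4 lay above the control and 2 below it, beside 53.3% and 46.7% of all genes. The 9 smooth muscle markers, led by Pdgfrb and Tagln, summed to 3108 RPM in the anti-miR library and 3153 RPM in the control, and 0 of them were 1.5-fold apart. In such bulk libraries, fewer cells of a type and less RNA per cell cannot be told apart.

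Elastin led the group by a wide margin in both libraries. Eln encodes tropoelastin, the soluble precursor of the elastic core, and lies on chromosome 12 of build rn4, from 23033657 to 23077043. It had 186356 reads, or 12578 RPM, in the anti-miR library, against 175218 reads, or 10929 RPM, in the control library. These reads were 1.26% of all reads on genes in the anti-miR library and 1.09% in the control. By RPM, Eln ranked 6th of all genes in the anti-miR library and 8th in the control.

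Levels of different genes were compared per length, as RPM per kilobase (kb) of the transcript length in the table. On this scale Eln had 3542 RPM per kb in the anti-miR library and 3078 in the control. Mfap4, a glycoprotein that binds tropoelastin and fibrillin, came second at 1103 RPM per kb in the anti-miR library and 1019 in the control. Together they held most of the summed per-length level, since Eln made up 63.4% in the anti-miR library and 61.4% in the control, and Mfap4 19.8% in the anti-miR library and 20.3% in the control.

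Fbn1, the fibrillin that forms the backbone of most microfibrils and is mutated in Marfan syndrome, and Fbln5, a fibulin needed for elastic fibre assembly in mice, stood next and close together. Fbn1 had 333 RPM per kb in the anti-miR library and 318 in the control. Fbln5 had 322 RPM per kb in the anti-miR library and 323 in the control. The order of this pair turned round between the libraries. Their exact Poisson 95% intervals, which cover counting error only, overlapped in the control and did not overlap in the anti-miR library. With the order turned round, the libraries gave no common order for these neighbours.

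Efemp2, also called fibulin-4, which recruits lysyl oxidase to tropoelastin, followed at 184 RPM per kb in the anti-miR library and 185 in the control. Emilin1, found at the boundary of elastin and microfibril, had 84.3 RPM per kb in the anti-miR library and 73.3 in the control. Fbln1, a fibulin of basement membranes and elastic fibres, had 14.8 RPM per kb in the anti-miR library and 10.03 in the control. A drop of 5.67-fold in the anti-miR library and 7.30-fold in the control separated Emilin1 from Fbln1, the member below it.

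The remaining members were scarce. Fbn2, the fibrillin of developing tissues, had 3.08 RPM per kb in the anti-miR library and 2.66 in the control. Fbn1 thus stood 108-fold above Fbn2 per length in the anti-miR library and 119.6-fold above it in the control. Fbn2 is listed in 2 copies on unplaced rn4 sequence of chromosome 18, with an averaged length, so its per-length level is less certain than the others. Mfap5, which binds fibrillins, had 9 reads in the anti-miR library and 0 in the control, and the floor of 3 reads used here for a count of 0 corresponds to 0.187 RPM there. All other neighbours in the order had intervals that did not overlap in either library, and 7 of the 9 members held the same place in both. Overlaps with other genes of the table were 0 for each of the 9.

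**Figure D1:**
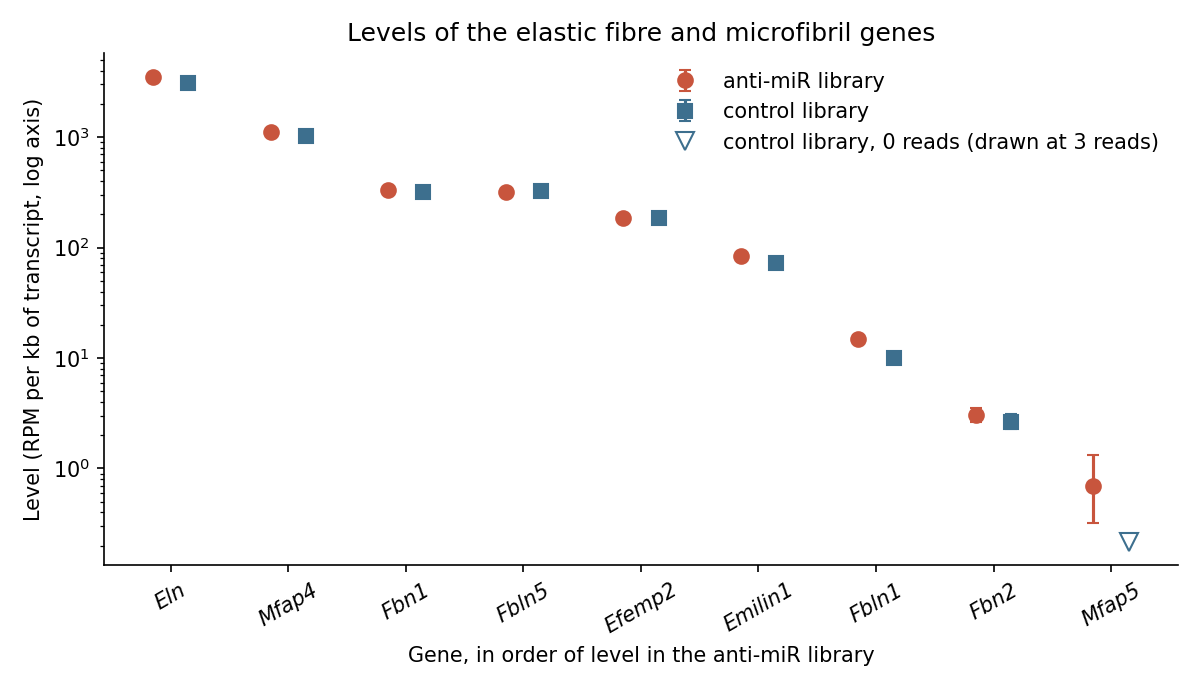
Level of each measured gene in RPM per kb of transcript (log axis), in the anti-miR library (circles) and the control library (squares), with exact Poisson 95% intervals that cover counting error only. Levels run from 3542 RPM per kb for Eln to under 1 for Mfap5 in the anti-miR library, and the open triangle marks 0 reads of Mfap5 in the control, drawn at 3 reads.

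The comparison asks whether inhibiting miR-99/100 and let-7 alters these transcripts. Differences were small: past a ratio of 1.5, 0 of the 8 members above the floor were higher and 0 lower in the anti-miR library. Among all 10365 genes above that floor, 10.8% passed this ratio upward and 8.56% downward. With a floor of 10 RPM, which all 8 members also pass, the shares of all genes were 5.43% upward and 3.62% downward. Of the 8 genes, 6 lay above the control by any amount and 2 below it, where 53.3% of all genes lay above and 46.7% below. An exact binomial test of the reads, adjusted over all genes by Benjamini-Hochberg, sets these libraries, not the conditions, against each other. It called 5 of the 8 members higher (Eln, Emilin1, Fbln1, Fbn1 and Mfap4) and 0 lower, where it called 31.7% of all genes higher and 26.4% lower. Such calls depend on the number of reads as well as on the ratio, since Fbn1 was called at a ratio of 1.04 and Fbn2 was not at 1.16. The shares of all genes were not matched to the members for reads. The median log2 ratio of the 8 members, anti-miR over control on the log2(RPM + 0.1) scale, was 0.16, and that of all genes was 0.03. This scale understates differences of low genes.

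In the elastic core, Eln had a ratio of RPM of 1.15, with an exact Clopper-Pearson 95% interval of 1.14 to 1.16 that covers counting error only. Its log2 ratio of 0.20 lay inside the range of −0.39 to 0.30 that held the central 95% of the 500 genes closest in level, and above 90.0% of them. Those 500 genes span 276 to 49613 RPM, since few genes are as abundant. All members together summed to 18581 RPM in the anti-miR library and 16629 RPM in the control, a ratio of 1.12. Without Eln the sum was 6003 RPM in the anti-miR library and 5699.9 RPM in the control, a ratio of 1.05, so Eln carried most of the difference in the sum.

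Among the fibrillins, Fbn1 had 2951 RPM in the anti-miR library and 2826 RPM in the control, a ratio of 1.04 (interval 1.03 to 1.06). Fbn2 had 188 reads in the anti-miR library, or 12.7 RPM, and 176 reads in the control, or 11.0 RPM. Its ratio of 1.16 had an interval of 0.936 to 1.43, which includes 1, so this depth could not show a difference.

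Among the fibulins, Fbln1 showed the widest gap of any member above the floor. It had 609 reads, or 41.1 RPM, in the anti-miR library, against 445 reads, or 27.8 RPM, in the control. The ratio was 1.48 (interval 1.31 to 1.68), just short of the 1.5-fold rule. Its log2 ratio of 0.56 lay inside the like-level range of −0.66 to 0.66 and above 95.2% of those genes. Fbln1 lies on chromosome 7, from 123208154 to 123287289.

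The fibulins known to act in elastin assembly were level between the libraries. Fbln5 had 759.7 RPM in the anti-miR library and 762 RPM in the control, a ratio of 0.997 (interval 0.971 to 1.02). Efemp2 had 287 RPM in the anti-miR library and 289 RPM in the control, a ratio of 0.993 (interval 0.952 to 1.04). Both intervals include 1, and both exclude a difference of the size seen for Eln, as counting error alone goes.

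Of the microfibril-associated genes, Mfap4 had 1629 RPM in the anti-miR library and 1504 RPM in the control, a ratio of 1.08 (interval 1.06 to 1.10). Emilin1 had 322 RPM in the anti-miR library and 280.3 RPM in the control, a ratio of 1.15 (interval 1.10 to 1.199). Its log2 ratio of 0.20 lay inside the like-level range of −0.34 to 0.34 and above 86.6% of those genes. Mfap5, with its 9 reads against 0, stood at least 3.25-fold higher than the control when that count of 0 is taken as 3 reads. The counting interval of its ratio, which adds the error of the 9 reads, ran from 2.14 upward. Genes as scarce as Mfap5 had log2 ratios between −3.46 and 3.48 in their central 95%.

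**Figure D2:**
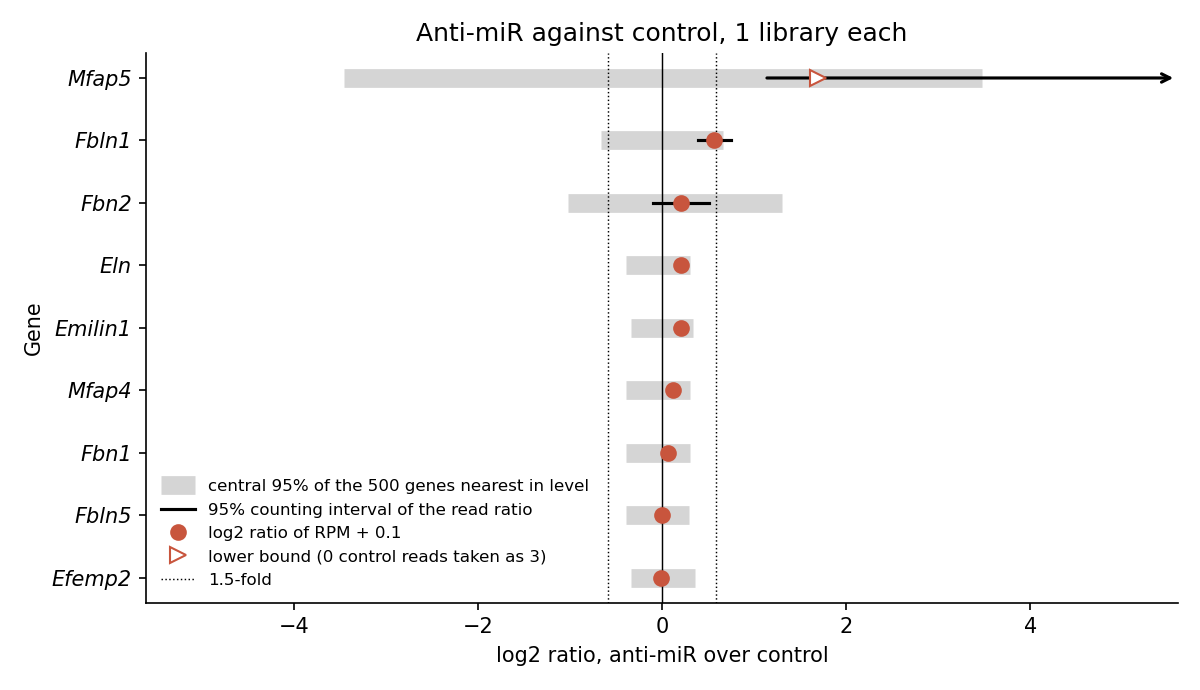
Log2 ratio of anti-miR over control for each measured gene (circles), with the 95% counting interval (black lines) and the central 95% of the 500 genes nearest in level (grey bars); dotted lines mark 1.5-fold. All 9 genes lie inside their grey bars, which for Mfap5 was fixed in advance by its low level. Fbln1 stands just short of 1.5-fold, and Mfap5 has a lower bound only (open triangle) and an interval open to the right.

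**Figure D3:**
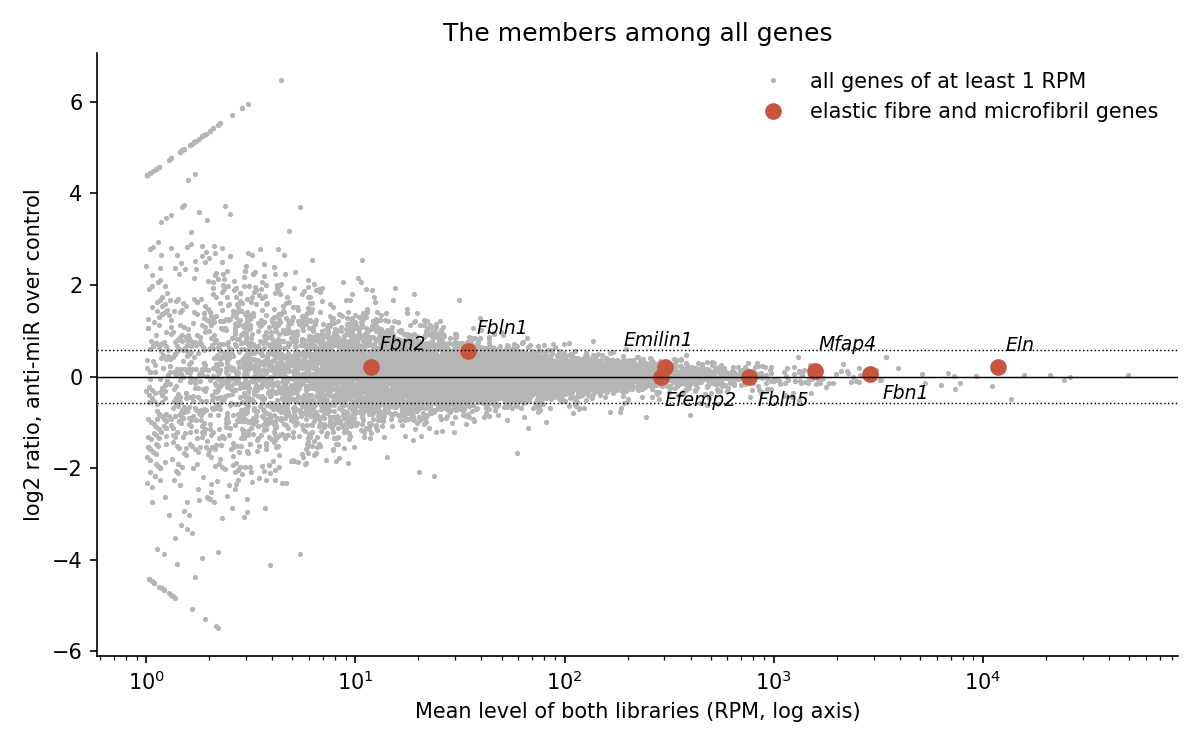
Log2 ratio of anti-miR over control against mean level (RPM, log axis) for the 10365 genes of at least 1 RPM (grey), with the 8 members above that floor in red; dotted lines mark 1.5-fold. The spread of all genes narrows with level, and the members lie between the dotted lines.

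Ratios between members within a library do not depend on how the libraries were scaled. Eln stood 10.7-fold above Fbn1 per length in the anti-miR library and 9.67-fold above it in the control, a quotient of 1.10 (Woolf 95% interval 1.09 to 1.12, counting error only). Eln stood 11.0-fold above Fbln5 in the anti-miR library and 9.53-fold in the control, a quotient of 1.15 (1.12 to 1.19). Fbln5 stood 21.7-fold above Fbln1 in the anti-miR library and 32.2-fold in the control, a quotient of 0.673 (0.594 to 0.763). Fbln5 over Efemp2 was 1.75 in both libraries (quotient 1.004, interval 0.956 to 1.05). The balance thus differed most for Fbln1 and least for the Fbln5 and Efemp2 pair among these 4 quotients. Other pairs computed gave quotients of 1.06 (1.04 to 1.08) for Eln over Mfap4 and 1.16 (1.09 to 1.23) for Emilin1 over Efemp2. Fbn1 over Fbn2 gave 0.904 (0.735 to 1.11), an interval that includes 1.

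Other genes listed with elastic fibres and microfibrils, by name or by role, were mixed, and not all of them are structural. Of 23 listed, 11 had a row and 8 lay above the floor, 0 of them 1.5-fold higher and 0 lower, with a median log2 ratio of −0.21. Adamts10, a protease that acts on fibrillin microfibrils, had 269 RPM in the anti-miR library and 260.0 RPM in the control. Adamtsl4, a fibrillin-binding protein, had 184 RPM in the anti-miR library and 175 RPM in the control. Mfap3 was highest, with 38.4 RPM in the anti-miR library and 26.4 RPM in the control. The hemicentin gene Hmcn1 was lowest, with 72.0 RPM in the anti-miR library and 100.6 RPM in the control, a log2 ratio of −0.48. Mfap2, a core microfibril protein gene chosen after its values were seen, had 19 reads in the anti-miR library and 0 in the control. Like Mfap5 it lay below the floor, and no range of genes of like level was computed for it. It stood at least 6.85-fold higher with the control taken as 3 reads, and the counting interval of the ratio, which adds the error of the 19 reads, ran from 5.05 upward. Efemp1, a fibulin gene also chosen after its values were seen, had 0 reads in both.

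The lysyl oxidases, which cross-link elastin, went both ways. Of 5 genes, 0 were 1.5-fold higher and 1 was lower, beside 10.8% and 8.56% of all genes, with a median log2 ratio of 0.02. Loxl1, required for elastic fibre upkeep in mice, had 771 RPM in the anti-miR library and 769 RPM in the control, and Loxl2, of the same family, had 442 RPM in the anti-miR library and 436 RPM in the control. Loxl3 was highest, with 208 RPM in the anti-miR library and 166 RPM in the control, a ratio of 1.25 (interval 1.19 to 1.32). Loxl4 had 14.7 RPM in the anti-miR library and 24.7 RPM in the control, a ratio of 0.596 (interval 0.503 to 0.705).

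Latent TGF-beta binding proteins resemble fibrillins, and some of them hold the growth factor on microfibrils. They were listed with TGF-beta ligands and matrix-processing proteases. Of these 10 genes, 0 were 1.5-fold higher and 0 lower, beside 10.8% and 8.56% of all genes. By any amount, 7 lay below the control, beside 46.7% of all genes. The median log2 ratio was −0.10, against 0.03 for all genes. Ltbp2, the most abundant, had 2257 RPM in the anti-miR library and 2449.7 RPM in the control. Ltbp3 was highest, with 544 RPM in the anti-miR library and 498 RPM in the control, and Tgfb2 lowest, with a log2 ratio of −0.21.

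Proteases that cut elastin or microfibrils, listed with their inhibitors, had a median log2 ratio of −0.11 over 12 genes above the floor. Of these, 1 passed 1.5-fold upward and 1 downward, beside 10.8% and 8.56% of all genes. Mmp2, a gelatinase, had 3131 RPM in the anti-miR library and 3302 RPM in the control. Mmp12, the macrophage elastase, had 1074 RPM in the anti-miR library and 1387 RPM in the control, a ratio of 0.775 (0.759 to 0.791). Ctss, the elastin-cutting cathepsin S, chosen after its values were seen, had 1041 RPM in the anti-miR library and 1417 RPM in the control. Mmp9 was lowest, with 9 reads in the anti-miR library and 165 in the control, a ratio of 0.0590 (0.0265 to 0.115). Mmp7 was highest, with 46 reads in the anti-miR library and 23 in the control. Of 8 macrophage markers above the floor, 5 lay below the control, beside 46.7% of all genes, and 0 were 1.5-fold apart. The 9 measured, led by Lyz2 and Cd68, summed to 6948 RPM in the anti-miR library and 6370.3 RPM in the control, and Cd163 had 0 reads in both. Lyz2 alone set that direction, since the other markers summed to 3011 RPM in the anti-miR library and 3434 RPM in the control, and the median log2 ratio of the list was −0.23. Their part in the protease values was not tested.

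Receptors of elastic fibre proteins had a median log2 ratio of 0.05 over 10 genes above the floor, and 0 of them were 1.5-fold apart. The integrin gene Itgb1 had 2333 RPM in the anti-miR library and 2200.1 RPM in the control. Ctsa, protective protein of the elastin receptor complex, had 1591 RPM in the anti-miR library and 1747 RPM in the control. Itga4 was highest at a log2 ratio of 0.51 and Sdc4, a syndecan, lowest at −0.22.

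**Figure D4:**
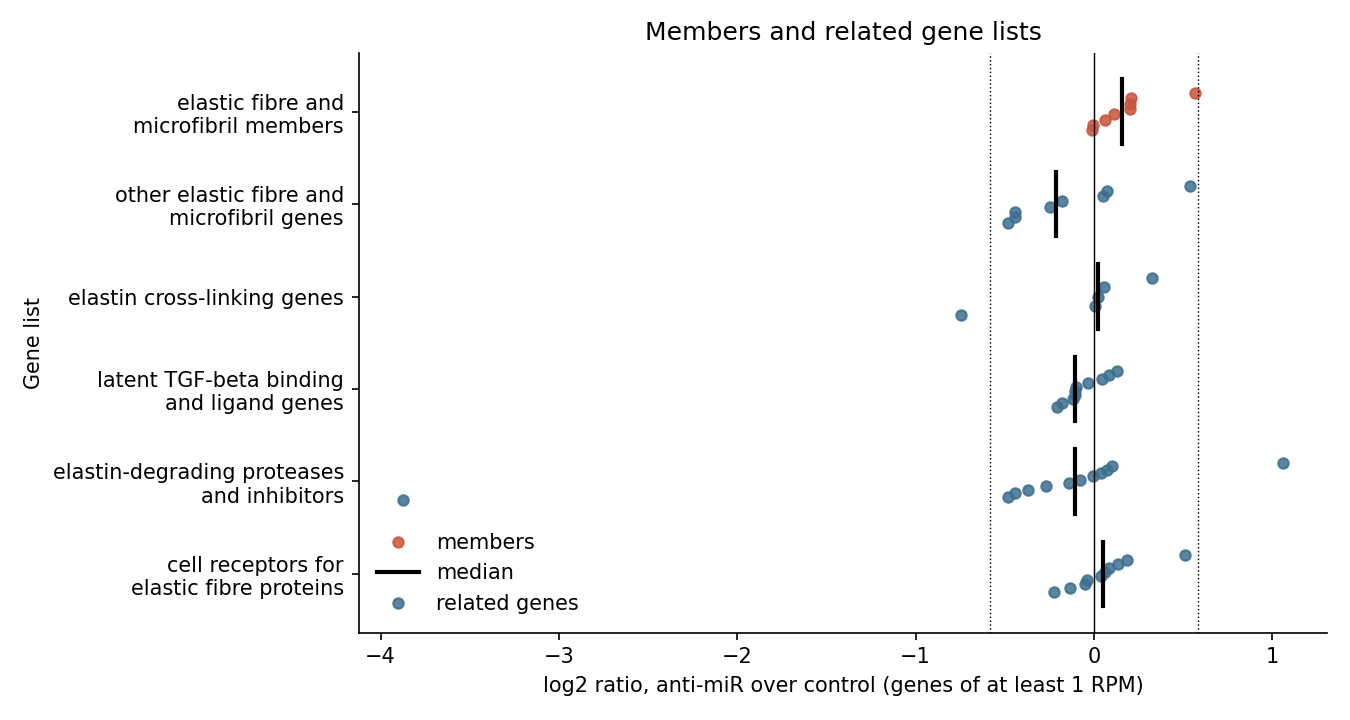
Log2 ratio of anti-miR over control for the members (red) and 5 lists of related genes (blue), genes of at least 1 RPM, 1 point per gene with the list's median as a bar and dotted lines at 1.5-fold. The medians lie between −0.21 and 0.16, and Mmp9, Mmp7 and Loxl4 are the points beyond the dotted lines.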

How the data were processed

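Poly(A) RNA was sequenced in 1 anti-miR and 1 control library. The authors deposited gene values that are a scaled signal. Per the file headers, HOMER counted reads lying opposite to the transcript's strand over exons of rn4 transcripts and condensed them to 1 transcript per gene. The submitters' processing notes list CASAVA 1.8.2, HOMER and STAR 2.2.0c but not what each was used for; the scaling step and the handling of reads with several matches are not given in the sources used here. Column totals of the signal are 15423812 in the anti-miR and 15423813 in the control column, so a scaling followed the counting. The deposited transcript length is in bases, and its use for levels rests on the 1 transcript kept.

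Whole reads were recovered, since 100% of values up to 400 reads were whole multiples of 1 read within 0.005 signal units. RPM is signal per 1000000 of its column. Log2 ratios of genes used a pseudocount of 0.1 RPM, while plain ratios are quotients of RPM without it. The floor was a mean of 1 RPM, and the 1.5-fold rule was applied to the log2 ratios. Intervals cover counting error alone, because there was 1 library per group. They take reads as independent, which PCR copies without molecular identifiers are not, so they may be too narrow even for counting error. An exact binomial test of the reads, Benjamini-Hochberg adjusted over genes above the floor, was an alternative chosen after seeing the data, and it sets library against library. Alternatives varied the pseudocount, floor, fold rule and scaling, among them TMM factors of edgeR 4.0.16. All members are named. In each related list the highest and lowest ratio and the 2 most abundant genes above the floor are named, and in each marker list the 2 most abundant. Genes named beyond this rule, after their values were seen, are Mfap2, Efemp1, Ctss, Cd163, Myh6, Ryr2, Tnni3, Myl2 and Pln. Endothelial markers summed to 70.3 RPM in the anti-miR library and 47.5 RPM in the control, and epicardial markers to 148 RPM in the anti-miR library and 146 RPM in the control. Of the endothelial markers, led by Flt1 and Tie1, 3 of 7 above the floor passed 1.5-fold upward and 2 downward. Of the epicardial, led by Aldh1a2 and Tbx18, 0 of 6 passed it upward and 2 downward. Among all genes above the floor, 10.8% passed it upward and 8.56% downward. The members and lists were chosen with earlier results of these data known. Python 3.11.15, scipy 1.17.1 and R 4.3.3 were used, and the computations were checked on simulated data.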

Additional observations from a re-analysis of the deposited data

How the results depend on the processing

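No paired analysis was possible because there was 1 library per group and the labels carry no replicate numbers; for the same reason no library could be left out. Without a floor the count of members at least 1.5-fold higher was 1, Mfap5, where 16.3% of all genes with a read were higher and 11.0% lower, and with a 1.2-fold rule it was 1, Fbln1; in the other planned settings that count was 0, and the count of members lower was 0 in every planned setting. The exact binomial test of the 2 libraries' reads (adjusted p under 0.05), added later, put 5 members above the control and 0 below, where it called 58.1% of all genes. The members' median log2 ratio of 0.16 was 0.20 without a floor and 0.11 without Eln. The log2 ratio of the members' sums, 0.16, was 0.14 with TMM or median ratio scaling, 0.15 without the 50 most abundant genes in the total and 0.075 without Eln. The share of all genes at least 1.5-fold higher was 5.43% with a floor of 10 RPM, and the share lower 3.62%; past 1.2-fold they were 25.7% and 20.9%, and past 2-fold 4.85% and 3.56%. The protease list's median of −0.11 was −0.13 with TMM scaling and −0.14 with a floor of 10 RPM or none. The cause of these shifts was not tested beyond the genes that each floor or fold admits. The log2 ratio of Mfap5 ran from 0.68 to 5.95 with the pseudocount, since its control count is 0. Scaling moved 2 others. Eln went from 0.203 to 0.178 with TMM and 0.180 with median ratio scaling. Fbn1 went from 0.063 to 0.038 and 0.040. These fall below the lower ends of their counting intervals on the log2 scale, 0.193 for Eln and 0.0437 for Fbn1. Depth limits Fbn2, whose counting interval includes 1, and leaves only lower bounds for the ratios of Mfap5 and Mfap2.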
